A study of Mus musculus and Homo sapiens with 34 samples.

Results

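Integrins are the cell-surface receptors, and laminins the basement-membrane proteins many of them bind, through which epithelial and lung tumour cells hold on to the matrix. All genes named Itga, Itgb, Lama, Lamb or Lamc followed by a number or a letter of the family (for example Itgav and Itgae) were taken by name from the deposited count tables. These families were chosen with earlier results of these data known. This gave 46 gene symbols, 38 of them protein-coding and 8 noncoding or pseudogene neighbours, among up to 26245 genes listed in a table. The libraries came from a study of lung adenocarcinoma whose title poses the question of how opposing lineage programmes act in tumours of mixed identity, and here the matrix receptors and laminins were followed through each perturbation in it.

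A laminin molecule is built from 1 alpha, 1 beta and 1 gamma chain. Laminin-332, which holds the chains encoded by Lama3 and Lamb3, is the anchoring laminin of epithelia, and integrin alpha6 beta4 (Itga6 and Itgb4) binds it in hemidesmosomes, while alpha3 beta1 binds it at other contacts. Laminin-511, from Lama5, Lamb1 and Lamc1, is a main laminin of the mature alveolar basement membrane, and Lamb2 replaces Lamb1 in laminin-521. Integrins pair 1 alpha with 1 beta subunit: alpha1 and alpha2 with beta1 bind collagens, alphav with beta3, beta5, beta6 or beta8 binds RGD-containing ligands and, for beta6 and beta8, some forms of latent TGF-beta, and beta2 and beta7 are best known from leukocytes.

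Bulk poly(A) RNA was sequenced in 34 libraries, 2 in each of 17 groups, 22 from mouse and 12 from human cultures. Mouse 3154 lung organoids carried p53frt, Rosa-FSF-CreERT2 and Hnf4aflox among their alleles. They received ethanol, or 2 mM (as labelled) 4-hydroxytamoxifen (4OHT) for 2 days, which activates the CreERT2 recombinase and deletes Hnf4a, and RNA was taken 2 weeks later. In a second 3154 experiment, labelled 48 h, ethanol or 4OHT was combined with vehicle or with 3 nM MRTX1133, a small-molecule inhibitor. Mouse 1027B organoids and the mouse 3311 cell line carried p53frt, Rosa-FSF-CreERT2, Foxa1flox and Foxa2flox among theirs. No treatment that deletes the Foxa genes is named for them. The 1027B organoids received vehicle, 10 nM trametinib (a MEK1/2 inhibitor) or 20 nM MRTX1133 for 48 h, and 3311 cells vehicle or 50 nM trametinib for 48 h. For 48 h the human lung adenocarcinoma lines, H358 and H1651, were given vehicle or trametinib at 20 nM. In a further experiment, H1651 cells with a lentiviral doxycycline-inducible HNF4A construct were kept without doxycycline or with 1 µg/mL for 7 days. Each line stands for 1 tumour or patient line, organoids were grown in L-WRN conditioned medium, and the labels do not say that replicates were separate cultures, so p-values measure the spread between libraries, which may be technical.

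Total counts ran from 19692517 to 45284286 per library. Hnf4a, the deleted gene, fell from 315 and 427 counts scaled to library size (CPM) in ethanol to 53.5 and 68.0 CPM in 4OHT at 2 weeks and from 221 and 230.1 to 49.4 and 50.4 CPM at 48 h, and HNF4A rose from 47.1 and 35.9 to 94.4 and 96.8 CPM with doxycycline. Of 5 genes known to respond to ERK signalling (Dusp6, Spry4, Etv4, Etv5, Phlda1), all 5 were called lower under trametinib in 1027B, 3311 and H358 cells, 3 under MRTX1133 in 1027B, 2 under MRTX1133 in 4OHT-treated 3154, and 0 in ethanol-treated 3154. In H1651 under trametinib 0 were called, with a median log2 fold change of -2.22. All 6 epithelial markers checked exceeded 3 counts in every library. CPM values here are scaled within 1 table by TMM factors, and the 7 tables were normalized separately, so levels are compared and tested within a table only. A gene was called changed at a Benjamini-Hochberg adjusted p under 0.05 over all genes tested in that table (edgeR quasi-likelihood test), log2 fold changes are given ± SE, and each group has n = 2. In these bulk libraries a change in the number of cells of a type and a change in RNA per cell cannot be told apart.

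The mouse promoters of 4 members are shown, chosen among the genes most often called in 1 direction over the mouse and human comparisons. Itgb6 was called higher in 6, Itga2 lower in 5, Lamb3 higher in 5 and Lamb2 higher in 4, a count that Itga6, Itgb4 and Itgb5 reached too, each lower in 4. The opposite call was made for Lamb3 in 2 comparisons and for Itgb6, Itga2 and Itga6 in 1 each. Some of those comparisons share control libraries, and the counts include the human gene in H358 and H1651 cells. Each sequence is the 250 bases before a RefSeq start in GRCm38.p6, 5′ to 3′ on the gene's strand. They were searched on both strands for AP-1 (TGANTCA), ETS (CCGGAAG), HNF4 (CAAAGTCCA), FOXA (TGTTTNC) and NKX2-1 (CACTTG) letters. No matches overlapped, and capitals mark a match. Of 34 mouse members, 22 had a promoter entry.
Itgb6, chr2:60722604-60722853, minus strand: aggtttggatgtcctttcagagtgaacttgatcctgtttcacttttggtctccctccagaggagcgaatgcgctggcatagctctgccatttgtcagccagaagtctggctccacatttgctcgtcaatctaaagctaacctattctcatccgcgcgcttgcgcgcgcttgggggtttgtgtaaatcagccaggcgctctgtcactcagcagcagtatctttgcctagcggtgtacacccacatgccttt
Itga2, chr13:114932101-114932350, minus strand: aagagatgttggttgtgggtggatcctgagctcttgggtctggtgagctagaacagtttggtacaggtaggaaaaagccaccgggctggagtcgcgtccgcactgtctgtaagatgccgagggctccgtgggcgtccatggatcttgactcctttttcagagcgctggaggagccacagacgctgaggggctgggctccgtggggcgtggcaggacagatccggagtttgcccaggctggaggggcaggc
Lamb3, chr1:193301744-193301993, plus strand: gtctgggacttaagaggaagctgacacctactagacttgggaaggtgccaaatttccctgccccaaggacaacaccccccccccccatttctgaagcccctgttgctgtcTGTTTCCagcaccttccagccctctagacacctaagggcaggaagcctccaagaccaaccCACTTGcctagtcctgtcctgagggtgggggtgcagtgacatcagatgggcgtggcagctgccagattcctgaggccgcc
Lamb2, chr9:108479612-108479861, plus strand: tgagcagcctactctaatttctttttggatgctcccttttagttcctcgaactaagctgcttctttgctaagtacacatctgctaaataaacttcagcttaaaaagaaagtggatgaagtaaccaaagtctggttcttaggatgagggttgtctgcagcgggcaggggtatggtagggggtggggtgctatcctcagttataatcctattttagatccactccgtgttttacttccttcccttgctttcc
Only the Lamb3 window held matches, a FOXA match 140 to 134 bases and an NKX2-1 match 80 to 75 bases before the start used. Itgb6 and Lamb3 each had 2 RefSeq starts listed, and for each only the window of 1 start was searched. Over 32851 RefSeq mouse promoters of the same length, 17.84% held a FOXA match, 11.61% an NKX2-1 match, 6.91% an ETS match, 6.75% an AP-1 match and 0.38% an HNF4 match. A match is a description of the letters and not a bound site. In GENCODE M21 (GRCm38), Itgb6 (ENSMUSG00000026971) lies on chromosome 2 from 60598292 to 60722643, Itga2 (ENSMUSG00000015533) on chromosome 13 from 114833081 to 114932100, Lamb3 (ENSMUSG00000026639) on chromosome 1 from 193207699 to 193343878 and Lamb2 (ENSMUSG00000052911) on chromosome 9 from 108479736 to 108490530.

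In the mouse cultures, Itgb1, the beta subunit shared by most integrins, and the laminin chain Lama5 stood among the highest members when control levels were set per kilobase of exon (CPM per kb). Among the genes described, 1027B vehicle had Itgb1 at 164 CPM per kb (159 to 168 in the 2 libraries), Lama5 at 127 (108 to 146), Itga2 at 89.1 (83.4 to 94.9) and Itga6 at 83.4 (80.1 to 86.7). The ranges of Itga2 and Itga6 overlapped. In these organoids Lamb3 stood at 19.1 (17.5 to 20.7) and Lama3 at 13.1 (11.5 to 14.7) CPM per kb.

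Ethanol-treated 3154 organoids also had Lamb3 above Lama3, with Lamb3 at 54.0 CPM per kb (51.2 to 56.8) and Lama3 at 2.09 (1.82 to 2.37) at 2 weeks, and 35.1 (32.6 to 37.6) and 2.37 (1.58 to 3.17) CPM per kb at 48 h. Lama5 in 3154 was 107 CPM per kb at 2 weeks (88.8 to 126), overlapping Itgb1, and 55.2 at 48 h (34.9 to 75.5). The 3311 line had 0 counts of Lama3 in both vehicle libraries, while Lamc1 reached 130 CPM per kb (125 to 135), beside Lama5 at 123 (123 to 124), Itga2 at 158 (138 to 177) and Itgb1 at 211 (200.1 to 223). Itgb6, the epithelial partner of alphav, stood at 0.611 CPM per kb in the same 3311 libraries (0.460 to 0.762).

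**Figure D1:**
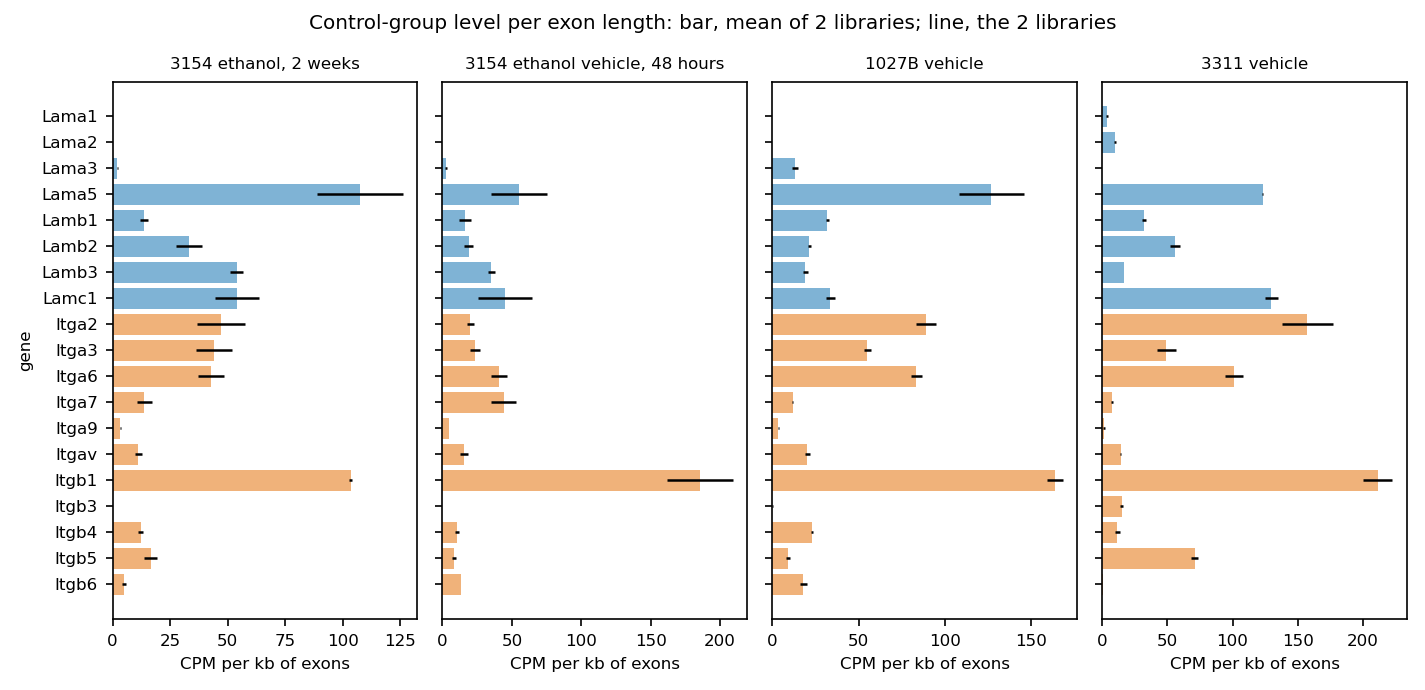
Control-group level of the mouse members in CPM per kb of exon, 1 panel per culture, with bars for the mean of 2 libraries and a line joining the 2 values. Itgb1 and Lama5 lead in both organoid lines among the genes drawn, and Lama3 sits below Lamb3 in every panel and at 0 in 3311.

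**Figure D2:**
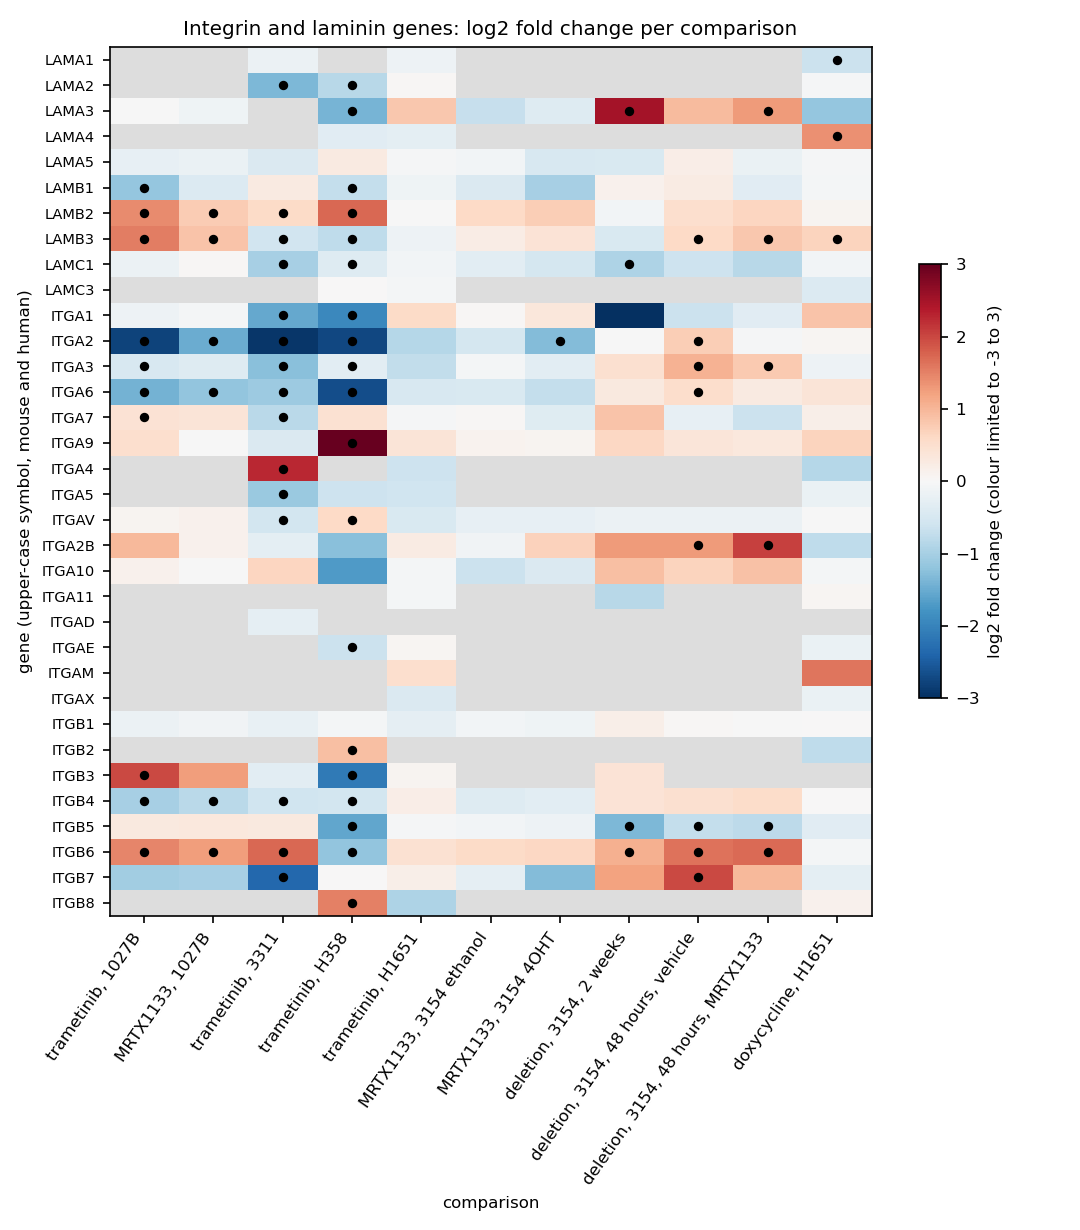
Log2 fold change of the members in 11 comparisons with a matching control, colour limited to -3 to 3, with a dot where the adjusted p was under 0.05 and grey where a gene was not listed or not tested. Itga2 falls in each comparison of an inhibitor in which it carries a dot, and Itgb6 rises in every mouse comparison in which it carries one.

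In 1027B organoids, trametinib lowered the collagen receptor subunit Itga2 and the hemidesmosomal pair Itga6 and Itgb4, and raised the laminin-332 chain Lamb3, with Lama3 near its control level. It also raised Itgb6 and shifted the balance of the laminin beta chains, with Lamb2 up and Lamb1 down. Of 22 protein-coding members tested, 11 were called (5 higher, 6 lower), against 26.7% of all genes tested (13.5% higher, 13.2% lower, and 67.1% with groups that did not overlap), and the members' median log2 fold change was -0.08 against -0.01 over all genes. Of the 27 listed, Itgb2, Itga5, Lama2, Lamc3 and Itgam did not pass the filter on low counts.

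Itga2, which with beta1 binds collagen, had 595 and 677 CPM in vehicle and 98.7 and 86.8 CPM with trametinib, a log2 fold change of -2.78 ± 0.18 (adjusted p = 0.000578). This was the largest fall among the called members, to 0.146 of the vehicle level. Itga6 went from 783 and 722 to 278 and 287 CPM (-1.41 ± 0.11, adjusted p = 0.000772). Its hemidesmosomal partner Itgb4 went from 165 and 156 to 84.6 and 75.4 CPM (-1.0 ± 0.13, adjusted p = 0.00329). Itga3, the other alpha subunit that binds laminin-332, fell less, from 328 and 301 to 216 and 237 CPM (-0.47 ± 0.10, adjusted p = 0.0187). In all 4 genes both treated libraries lay below both vehicle libraries.

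Among the laminin-332 chains, Lamb3 rose from 115 and 137 to 350.1 and 377 CPM (1.53 ± 0.13, adjusted p = 0.000958). Lama3 had 158 and 124 CPM in vehicle and 172 and 108 CPM with trametinib, overlapping groups with an adjusted p of 0.991. Among the other laminins, Lamb2 rose from 124 and 137 to 345 and 349 CPM (1.41 ± 0.13, adjusted p = 0.00112) and Lamb1 fell from 307 and 324 to 152 and 128 CPM (-1.17 ± 0.16, adjusted p = 0.00394). The chains that complete laminin-511 and laminin-521 did not pass, with Lama5 at 1229.5 and 1659.5 against 1173 and 1251 CPM and Lamc1 at 258 and 298 against 229 and 262 CPM.

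Itgb6 rose from 142 and 112 to 372 and 334 CPM (1.47 ± 0.17, adjusted p = 0.00225). Its only alpha partner, Itgav, had 204 and 231 CPM in vehicle and 205 and 255 CPM with trametinib and was not called. Itgb1 was not called either, at 686 and 649 against 579.7 and 610.3 CPM. Itga7, an alpha subunit of laminin receptors best known from muscle, rose from 91.2 and 98.7 to 130.3 and 127 CPM (0.44 ± 0.11, adjusted p = 0.0281). Itgb3 rose from 0.291 and 0.217 to 1.11 and 0.933 CPM (1.98 ± 0.47, adjusted p = 0.0233; 0.0513 with DESeq2), a change at very low counts. The Itga7 and Itgb3 calls were lost without any 1 of the 4 libraries (log2 fold changes 0.38 to 0.52 and 1.82 to 2.21), and that of Itga3 without either vehicle or the first trametinib library (-0.51 to -0.41).

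With MRTX1133, Itga2, Itga6 and Itgb4 fell and Lamb3, Lamb2 and Itgb6 rose in the same organoids, measured against the same vehicle libraries as with trametinib. Of the 22 members tested, 7 were called (3 higher, 4 lower), against 6.27% of all genes (3.01% higher, 3.26% lower, and 52.5% with groups that did not overlap). Itga2 had 263 and 189.5 CPM with MRTX1133 (-1.49 ± 0.17, adjusted p = 0.00946), Itga6 had 345 and 316 CPM (-1.19 ± 0.11, adjusted p = 0.005) and Itgb4 had 101 and 82.3 CPM (-0.80 ± 0.13, adjusted p = 0.0203). Lamb3 had 211 and 243 CPM (0.85 ± 0.13, adjusted p = 0.0174) and Lamb2 had 197 and 242 CPM (0.75 ± 0.13, adjusted p = 0.0224). Itgb6 reached 341 and 263 CPM (1.25 ± 0.17, adjusted p = 0.0136). Each of these values lay outside the range of the vehicle libraries. Lama3, at 147 and 111 CPM, overlapped vehicle. Some of the 7 calls were lost whenever 1 of the 4 libraries was left out, and calls over all genes also fell. Over those fits and the other processing settings, log2 fold changes ran from -1.74 to -1.26 for Itga2 and -1.25 to -1.11 for Itga6. The ranges were -0.96 to -0.65 for Itgb4, 0.73 to 0.99 for Lamb3, 0.61 to 0.90 for Lamb2 and 1.05 to 1.44 for Itgb6.

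Trametinib at 10 nM and MRTX1133 at 20 nM, 2 compounds used at different doses, were also compared directly. No member and 0% of all genes passed in edgeR, although 5 members had an unadjusted p under 0.05 and DESeq2 called 4, with 675 of 12666 genes. Itga2 was higher with MRTX1133 than with trametinib by 1.29 ± 0.17 on the log2 scale (adjusted p = 0.0773) and Lamb1 by 0.75 ± 0.16 (adjusted p = 0.126). Lamb3 differed by -0.68 ± 0.13 (adjusted p = 0.107) and Lamb2 by -0.66 ± 0.12 (adjusted p = 0.111), lower with MRTX1133. With the replicate number as a block, which the correlated deviations of same-numbered 1027B libraries allow, these 4 and Itga9 were called, with 2050 of 14555 genes (Lamb3 -0.69, adjusted p = 0.00134; Itga2 1.28, adjusted p = 0.00171; Lamb2 -0.67, adjusted p = 0.0025; Lamb1 0.75, adjusted p = 0.00462; Itga9 -0.51, adjusted p = 0.0212). The block also called Itga9 under trametinib (0.51, adjusted p = 0.00661) and Itga3 (-0.38, adjusted p = 0.0117), Lamb1 (-0.43, adjusted p = 0.0224) and Itga7 (0.38, adjusted p = 0.0129) under MRTX1133.

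Genes that work beside the integrins and laminins moved with both signs in trametinib-treated 1027B, where 13.5% of all genes were called higher and 13.2% lower. Of 5 hemidesmosome and tetraspanin partners tested, 2 fell, the linker proteins Plec (440.1 ± 60.2 to 256 ± 9.59 CPM, mean ± SD, log2 fold change -0.78, adjusted p = 0.0108) and Dst (99.5 ± 1.54 to 72.0 ± 5.30 CPM, -0.47, adjusted p = 0.0232). Of 15 focal adhesion genes, 3 rose and 3 fell, with the adaptor Tns4 changing most (85.8 ± 4.51 to 4.80 ± 2.25 CPM, -4.16, adjusted p = 0.000642). Of 9 basement membrane partners, 4 rose and 0 fell, including the laminin receptor dystroglycan, Dag1 (392 ± 33.7 to 898 ± 36.6 CPM, 1.19, adjusted p = 0.00137). Of 14 genes tested from a list of other integrin ligands, 5 rose and 3 fell. Among those that rose were Tgfb2, the precursor of TGF-beta 2 (3.35 ± 1.22 to 44.4 ± 16.7 CPM, 3.72, adjusted p = 0.00146), and Fbln5, a matrix protein of elastic fibres (3.73 ± 1.85 to 71.6 ± 24.3 CPM, 4.27, adjusted p = 0.00119). Whether an integrin of these cells binds TGF-beta 2 was not tested. Of 4 proteases, Mmp14, a membrane-bound metalloprotease, and Bmp1, which trims laminin-332, rose and the urokinase gene Plau fell (Plau 23.1 ± 0.819 to 6.90 ± 2.45 CPM, -1.75, adjusted p = 0.00411). With MRTX1133, beside 3.01% of all genes called higher and 3.26% lower, 0 of 5 hemidesmosome partners were called. Of 15 focal adhesion genes 2 rose and 1 fell (Tns4, to 17.1 ± 0.526 CPM, -2.32, adjusted p = 0.00884). Rises were called in 2 of 9 basement membrane partners, 4 of 14 ligands and 1 of 4 proteases, and none of these fell. Of 6 epithelial markers 1 was called higher and 1 lower with trametinib, their sum going from 9394 and 9213 CPM in vehicle to 7598 and 8438 CPM. The 4 leukocyte markers listed, 1 called higher and 1 lower, summed to 9.25 and 7.91 CPM in vehicle and 7.17 and 6.62 CPM with trametinib, with Ptprc at 1.79 and 1.08 against 0.223 and 0.187 CPM. The 3 endothelial markers listed, 1 called higher and 1 lower, summed to 4.79 and 7.37 against 8.73 and 10.4 CPM, most of it Vwf. The part of these markers in the member values was not tested.

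In the 3311 line, trametinib lowered most of the members that were called, across the collagen receptors, the laminin receptors and the laminin chains, and raised Itga4, Itgb6 and Lamb2. Of 26 members tested, 16 were called (3 higher, 13 lower), against 39% of all genes (19.4% higher, 19.6% lower, and 74.5% with groups that did not overlap), and their median log2 fold change was -0.50 against 0.01 over all genes. Of 31 listed, Itgb2, Lama3, Itgb8, Itga8 and Lamc3 did not pass the filter on low counts.

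Itga2 went from 982 and 1265 to 139 and 157 CPM (-2.92 ± 0.19, adjusted p = 0.00036), and Itga1, also a collagen-binding subunit, from 6.84 and 6.57 to 2.08 and 2.55 CPM (-1.53 ± 0.29, adjusted p = 0.00763). Itgb7, a beta subunit better known from lymphocytes, stood at 83.5 and 76.4 CPM in vehicle and fell to 12.3 and 18.9 CPM (-2.36 ± 0.22, adjusted p = 0.000738). Among laminin receptors, Itga3 fell from 238 and 322 to 119 and 116 CPM (-1.25 ± 0.17, adjusted p = 0.00252) and Itga6 from 852 and 973 to 451 and 410.3 CPM (-1.08 ± 0.16, adjusted p = 0.00318). Itgb4 fell from 66.6 and 95.4 to 51.6 and 55.9 CPM (-0.59 ± 0.19, adjusted p = 0.0445; 0.0557 with upper-quartile scaling). None of these groups overlapped. The fibronectin receptor subunit Itga5 fell from 22.9 and 27.3 to 12.8 and 10.5 CPM (-1.11 ± 0.20, adjusted p = 0.00659), Itgav from 157 and 148 to 98.9 and 108 CPM (-0.56 ± 0.13, adjusted p = 0.0156) and Itga7 from 55.4 and 65.0 to 27.6 and 40.9 CPM (-0.81 ± 0.21, adjusted p = 0.0214).

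The laminin chains moved as follows. Lama2, the alpha chain of muscle and nerve laminins, fell from 170.1 and 147 to 60.4 and 63.8 CPM (-1.35 ± 0.14, adjusted p = 0.000992). Lamb3 fell from 111 and 108 to 73.2 and 73.0 CPM (-0.58 ± 0.13, adjusted p = 0.0117). Lamc1 fell from 1118 and 1030.4 to 554 and 526 CPM (-0.99 ± 0.16, adjusted p = 0.00392). Lamb2 rose from 361 and 315 to 555 and 449.6 CPM (0.57 ± 0.17, adjusted p = 0.0339). Lama5, at 1407 and 1397 against 1082 and 989 CPM, had an adjusted p of 0.0716. Lama3, the alpha chain of laminin-332, had 0 CPM in both vehicle libraries and 0 and 0.0761 CPM with trametinib, under the limit of 3 counts. Calls lost when 1 library was left out were Lamb2 (without the first or second vehicle or the first trametinib library, 0.41 to 0.67), Itgb4 and Itga7 (without the second vehicle or the first trametinib library, -0.54 to -0.31 and -0.69 to -0.56), Lamb3 (without either trametinib library, -0.59 and -0.58) and Itgav (without the first trametinib library, -0.50).

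Itga4, a fibronectin and VCAM1 receptor subunit, rose from 2.38 and 4.98 to 17.2 and 17.9 CPM (2.25 ± 0.35, adjusted p = 0.00377; 2.88 without the second vehicle library), and Itgb6 from 3.27 and 5.42 to 14.3 and 14.6 CPM (1.73 ± 0.29, adjusted p = 0.005). In the same libraries the summed level of the 4 leukocyte markers listed, 3 of them above 3 counts, was 9.77 and 15.9 CPM in vehicle and 22.1 and 29.1 CPM with trametinib, most of it Csf1r (4.68 and 11.7 to 20.2 and 27.7 CPM), with Ptprc at 0 in all 4 libraries. Of the 2 leukocyte markers tested, 1 was called higher and 1 lower. Of 4 fibroblast and smooth muscle markers tested 2 were called higher and 1 lower, with a sum over the 6 listed of 21.7 and 26.5 CPM in vehicle and 19.0 and 18.5 CPM with trametinib. Of 6 epithelial markers 1 was called lower, the sum going from 7536 and 9687 to 6159 and 7908 CPM. The part of these markers in the member values was not tested. Among partners, beside 19.4% of all genes called higher and 19.6% called lower, 3 of 16 focal adhesion genes rose and 5 fell, 4 of 8 basement membrane partners rose and 2 fell, 5 of 14 ligands rose and 5 fell, 1 of 4 proteases rose and 3 fell, and 0 of 5 hemidesmosome partners were called. Fibronectin, Fn1, fell from 2514 ± 23.7 to 668 ± 225 CPM (-1.91, adjusted p = 0.00222) and the laminin-binding linker nidogen, Nid1, from 1540 ± 2.53 to 513 ± 162 CPM (-1.59, adjusted p = 0.0033). Dag1 rose from 200.2 ± 25.4 to 641 ± 225 CPM (1.68, adjusted p = 0.00337), and Fras1, a basement-membrane protein of epithelia, from 46.1 ± 6.78 to 155 ± 29.9 CPM (1.74, adjusted p = 0.00106).

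**Figure D3:**
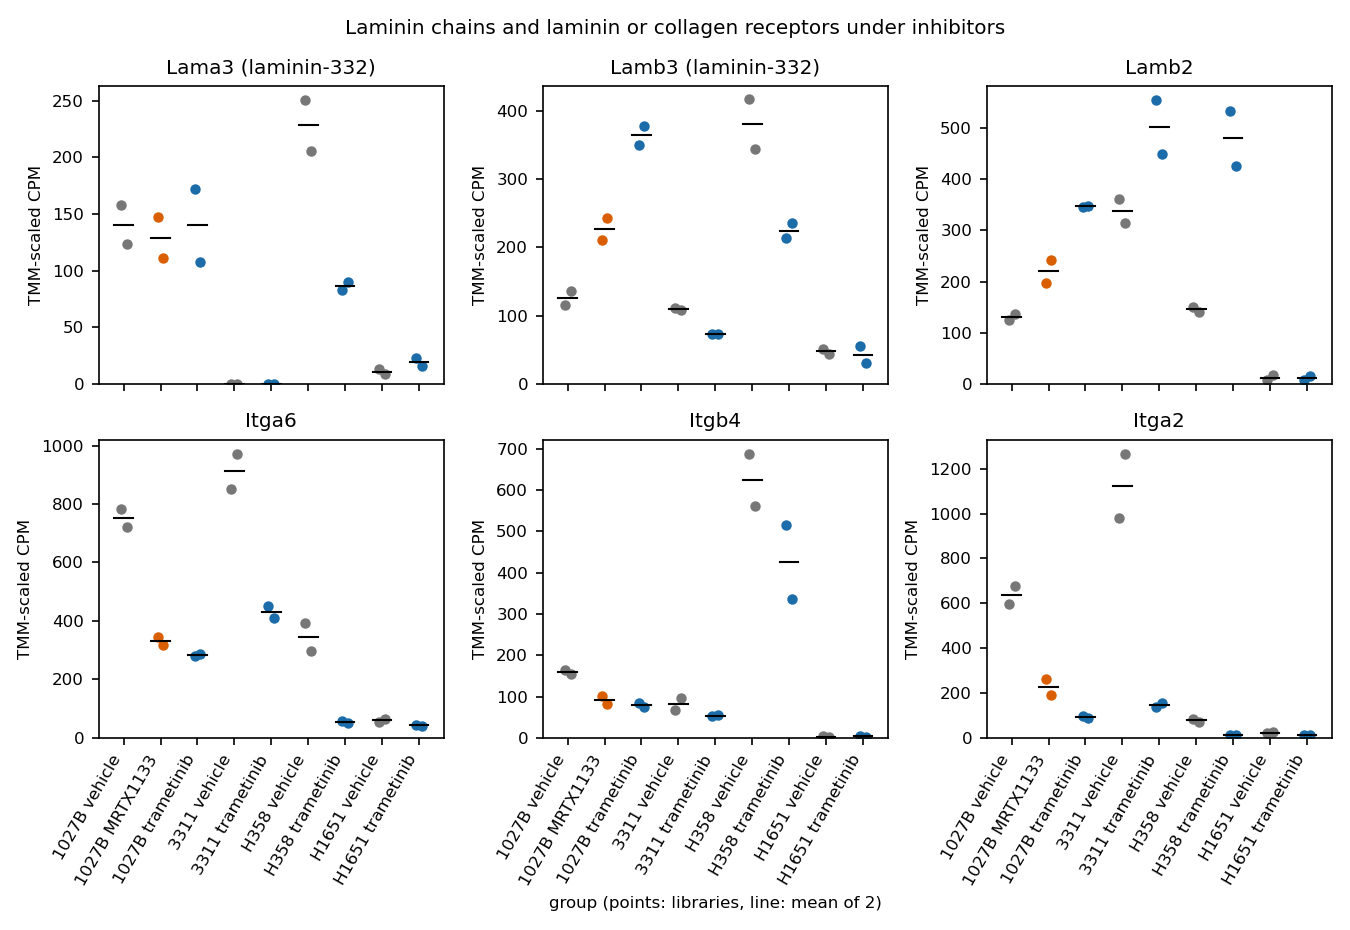
TMM-scaled CPM of the laminin chains Lama3, Lamb3 and Lamb2 and of Itga6, Itgb4 and Itga2 in vehicle and inhibitor groups of 1027B, 3311, H358 and H1651, with a point per library and a line at the mean of 2. Lamb3 with trametinib sits at 350.1 and 377 CPM in 1027B, above its vehicle, and at 73.2 and 73.0 in 3311 and 214 and 235 in H358, below theirs.

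In human H358 cells, trametinib lowered the laminin-332 chains LAMA3 and LAMB3, both hemidesmosomal integrin subunits, the collagen receptor subunits ITGA1 and ITGA2, and ITGB5 and ITGB6, while LAMB2, ITGB8, ITGAV and ITGB2 rose. Of 29 members tested, 20 were called (5 higher, 15 lower), against 46.8% of all genes (23.5% higher, 23.2% lower, and 75.9% with groups that did not overlap), and their median log2 fold change was -0.63 against 0.02 over all genes. By class, 7 of 10 laminin chains were called (1 higher, 6 lower) and 13 of 19 integrin subunits (4 higher, 9 lower). Of 36 listed, ITGAL, LAMB4, LAMA1, ITGA4, ITGA11, ITGAX and ITGAM did not pass the filter on low counts.

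ITGA6 fell from 394 and 297 to 58.8 and 50.4 CPM (-2.66 ± 0.16, adjusted p = 1.75e-05) and ITGB4 from 687 and 560.2 to 514 and 336 CPM (-0.55 ± 0.19, adjusted p = 0.0459; 0.0767 with upper-quartile scaling and 0.0528 with a minimum of 10 counts). Beside them, 1 of 6 hemidesmosome partners fell, the collagen COL17A1 (14.9 ± 0.872 to 6.13 ± 1.00 CPM, -1.27, adjusted p = 0.000685), and 3 rose, of which the tetraspanin CD9 changed most (177 ± 11.3 to 550.0 ± 31.0 CPM, 1.63, adjusted p = 2.49e-05). ITGA2 fell from 86.0 and 71.6 to 12.9 and 10.6 CPM (-2.74 ± 0.15, adjusted p = 1.34e-05) and ITGA1 from 25.6 and 17.4 to 6.06 and 5.10 CPM (-1.94 ± 0.21, adjusted p = 0.000249). ITGA3 went from 1051 and 951 to 810.1 and 804 CPM (-0.31 ± 0.10, adjusted p = 0.0375; 0.0617 with upper-quartile scaling).

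LAMA3 fell from 251 and 206 to 82.9 and 89.8 CPM (-1.40 ± 0.12, adjusted p = 9e-05) and LAMB3 from 417 and 344 to 214 and 235 CPM (-0.76 ± 0.12, adjusted p = 0.00157). In both chains both treated libraries lay below both vehicle libraries. LAMB1 fell from 511.05 and 398 to 275 and 279 CPM (-0.71 ± 0.13, adjusted p = 0.00293) and LAMC1 from 661 and 593 to 488 and 469 CPM (-0.39 ± 0.10, adjusted p = 0.0162). LAMB2, which takes the place of LAMB1 in laminin-521, rose from 150.4 and 141 to 533 and 426 CPM (1.72 ± 0.13, adjusted p = 4.46e-05). LAMA5, at 980.1 and 807 against 1298 and 844 CPM, overlapped and was not called. LAMA2, at 2.67 and 2.30 against 1.14 and 1.73 CPM, passed narrowly (-0.83 ± 0.29, adjusted p = 0.047; 0.111 with DESeq2).

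The alphav group split. ITGAV rose from 240.2 and 227 to 346 and 355 CPM (0.59 ± 0.10, adjusted p = 0.00184) and ITGB8 from 4.35 and 5.31 to 13.2 and 14.5 CPM (1.52 ± 0.18, adjusted p = 0.000325). ITGB5 fell from 225 and 192 to 66.6 and 75.8 CPM (-1.55 ± 0.12, adjusted p = 5.72e-05) and ITGB6 from 135 and 109.5 to 57.4 and 50.6 CPM (-1.18 ± 0.13, adjusted p = 0.00028). ITGB3 was 10.6 and 2.09 CPM in vehicle and 1.63 and 1.26 CPM with trametinib (-2.12 ± 0.64, adjusted p = 0.0266), a call that the first vehicle library carried (-0.55, adjusted p = 0.276 without it, and -2.86 without the second) and that DESeq2 did not make (adjusted p = 0.0955). ITGB2 rose from 22.7 and 14.6 to 37.8 and 31.3 CPM (0.89 ± 0.21, adjusted p = 0.00874), and its antisense neighbour ITGB2-AS1 from 2.10 and 1.79 to 4.43 and 3.30 CPM (1.00, adjusted p = 0.0129). ITGA6-AS1 fell with ITGA6, from 1.81 and 2.63 to 0.688 and 0.667 CPM (-1.70, adjusted p = 0.00322), and, since the strand setting of the counting is not given in the sources used here, reads of each pair cannot be told apart. ITGA9 had 3 counts in the vehicle libraries together and 48 in the treated, a ratio of 16.0 (exact 95% counting interval 5.16 to 80.4; adjusted p = 0.00125 in edgeR), with 4.55 on the log2 scale without the second vehicle library against 3.94 with all, and ITGAE fell from 6.29 and 7.91 to 4.23 and 4.87 CPM (-0.65 ± 0.21, adjusted p = 0.0322). Calls lost when 1 H358 library was left out were ITGA3 (without the first vehicle or either trametinib library, -0.31 to -0.27), ITGB4 (without the first vehicle or the second trametinib library, -0.43 and -0.28), LAMC1 (without the first vehicle library, -0.34), LAMA2 (without either vehicle or the first trametinib library, -0.94 to -0.52) and ITGAE (without the second vehicle or the first trametinib library, -0.49 and -0.53).

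Partners in H358 were counted beside the 23.5% of all genes called higher and 23.2% called lower. Of 8 basement membrane partners, 7 rose and 0 fell, among them the laminin alpha5 receptor BCAM (133 ± 30.2 to 450.0 ± 121 CPM, 1.75, adjusted p = 0.000344) and FRAS1 (41.9 ± 0.478 to 124 ± 14.0 CPM, 1.56, adjusted p = 4.25e-05). Of 12 genes tested from the list of other ligands, 7 rose and 3 fell. Nephronectin, NPNT, an alpha8 beta1 ligand, rose from 14.0 ± 0.473 to 104 ± 7.51 CPM (2.89, adjusted p = 4.57e-06), TGFB2 from 30.6 ± 4.41 to 139 ± 6.02 CPM (2.18, adjusted p = 1.73e-05), and tenascin C, TNC, fell from 912 ± 74.5 to 219 ± 9.87 CPM (-2.06, adjusted p = 1.17e-05). Of 15 focal adhesion genes 3 rose and 4 fell, and of 7 proteases 2 rose and 1 fell. The metalloprotease MMP7 rose from 5.17 ± 0.344 to 73.0 ± 5.63 CPM (3.82, adjusted p = 2.9e-06). Markers of several cell types moved in the same libraries. Of 6 epithelial markers, 3 were called lower and 1 higher, with a summed level of 5964 and 5680 CPM in vehicle and 4073 and 4319 CPM with trametinib. The summed level of the 9 fibroblast and smooth muscle markers listed was 51.5 and 42.4 CPM in vehicle, where 6 and 5 of them exceeded 3 counts, and 349 and 247 CPM with trametinib, where 8 did, with LUM at 12.3 and 7.76 against 200.4 and 127 CPM, COL1A1 at 36.4 and 32.3 against 141 and 111 CPM, and COL1A2 and THY1 at or near 0. The summed level of 4 endothelial markers was 13.5 and 15.3 CPM in vehicle and 28.1 CPM in each trametinib library, with VWF at 1.84 and 1.19 against 7.35 and 7.11 CPM. The summed level of 6 leukocyte markers was 61.9 and 52.7 CPM in vehicle and 23.2 and 24.7 CPM with trametinib, most of it CORO1A, with PTPRC at or below 0.73 CPM. Of these 6 leukocyte markers, 1 was called higher and 2 lower. The part of these markers in the laminin and integrin values was not tested.

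In H1651 cells, no member was called under trametinib, of 33 tested, and neither was any other gene (0% of all genes in edgeR). At an unadjusted p under 0.05 there were 8 members, a count for which no share over all genes was computed. DESeq2 called 1 member, ITGA2 (adjusted p = 0.0342), with 47 of 15986 genes. ITGA2 had 20.7 and 26.4 CPM in vehicle and 13.9 and 12.2 CPM with trametinib (-0.85 ± 0.16), ITGA3 had 105 and 152 against 74.3 and 78.1 CPM (-0.75 ± 0.19) and ITGA6 had 54.1 and 64.4 against 43.0 and 41.6 CPM (-0.48 ± 0.11). In these 3 genes the groups did not overlap, as in 28.5% of all genes tested, and the edgeR adjusted p was 0.999 for each. LAMA3 had 13.2 and 8.68 against 22.5 and 15.7 CPM (0.80 ± 0.27) and LAMB3 51.7 and 43.6 against 55.8 and 30.0 CPM. DUSP6, the ERK feedback phosphatase, had 49.8 and 51.8 against 5.27 and 7.46 CPM and was also not called. Without the first vehicle library, 4 members and 193 of 18975 genes were called. Of 36 listed, ITGAL, LAMB4 and ITGB2 did not pass the filter on low counts.

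Deleting Hnf4a in 3154 organoids raised Itgb6 and lowered Itgb5 at both times, and raised Lama3 at 2 weeks. At 48 h, Lamb3, Itga2, Itga3 and Itga6 also rose with vehicle. HNF4alpha is a nuclear receptor that drives gastrointestinal programmes in some lung adenocarcinomas. The 2-week and 48-h experiments are separate tables with their own controls. Without deletion, the first 48-h vehicle library stood above the second in several laminins, with Lamc1 at 532 and 214 CPM and Lama5 at 859 and 397 CPM.

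At 2 weeks, 4 of 23 members tested were called (2 higher, 2 lower), against 9.81% of all genes (4.03% higher, 5.78% lower, and 61.8% with groups that did not overlap), with a median log2 fold change of 0.28 against 0.02 over all genes. Lama3 rose from 19.5 and 25.5 CPM in ethanol to 82.4 and 173 CPM in 4OHT (2.50 ± 0.37, adjusted p = 0.0186; 1.88 without the second 4OHT library). Its laminin-332 partner Lamb3, at 339 and 375 against 224 and 294 CPM, was not called. Itgb6 rose from 41.9 and 27.9 to 72.6 and 74.3 CPM (1.07 ± 0.21, adjusted p = 0.0369). Itgb5 fell from 49.2 and 69.0 to 23.7 and 23.0 CPM (-1.34 ± 0.20, adjusted p = 0.0182), and Lamc1 from 369 and 527 to 228 and 241 CPM (-0.93 ± 0.19, adjusted p = 0.0397). DESeq2 called 7 members and 2337 of 14951 genes, adding Itga7 (0.84, adjusted p = 0.0121), Itgb7 (1.18, adjusted p = 0.0101) and Itga1 (-3.84, adjusted p = 0.00637), the last from a mean of 1.47 CPM in ethanol to 0.103 CPM in 4OHT. Without the second ethanol library edgeR also called 7, with 1519 of 15367 genes. None of the 4 pairs of groups overlapped, but only Lama3 remained called when the first or the second 4OHT library was left out. Of 28 listed, Itgb2, Itga5, Itgae, Itgam and Itgad did not pass the filter on low counts.

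In the ethanol libraries of that table the summed level of the 4 leukocyte markers listed (2 and 3 above 3 counts) was 18.4 and 44.6 CPM, against 9.95 and 13.4 CPM in 4OHT (3 and 4 above 3 counts), most of the ethanol level being Csf1r (13.2 and 38.1 CPM), with Ptprc at or below 0.37 CPM in every library. Of 2 endothelial and platelet markers tested 1 was called lower, the sum over the 4 listed going from 12.0 and 13.8 to 6.43 and 12.0 CPM. The part of these markers in the member values was not tested. Of the partners at 2 weeks, beside 4.03% of all genes called higher and 5.78% called lower, 6 of 11 ligands rose, including osteopontin, Spp1, a ligand of alphav integrins (6.85 ± 5.17 to 88.9 ± 4.07 CPM, 3.72, adjusted p = 0.0172), and 3 of 6 proteases, including Bmp1 (89.8 ± 31.4 to 198 ± 0.718 CPM, 1.14, adjusted p = 0.0436). Of 9 basement membrane partners 2 fell, Fras1 (53.6 ± 18.3 to 8.81 ± 0.579 CPM, -2.60, adjusted p = 0.0101) and Frem2. Tns4 was 1 of 2 focal adhesion genes of 16 that rose (82.1 ± 6.65 to 239 ± 48.9 CPM, 1.54, adjusted p = 0.0124).

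At 48 h with vehicle, 9 of 21 members were called (8 higher, 1 lower), against 31% of all genes (15.3% higher, 15.7% lower, and 66.8% with groups that did not overlap), with a median log2 fold change of 0.50 against 0.01 over all genes. Itgb6 rose from 95.1 and 93.8 to 257 and 328 CPM (1.63 ± 0.15, adjusted p = 0.000404), and Itga3 from 153 and 113 to 281 and 266 CPM (1.04 ± 0.20, adjusted p = 0.00629). Itga2 rose from 126 and 161 to 243 and 235 CPM (0.74 ± 0.17, adjusted p = 0.0136) and Itga6 from 418 and 318 to 532 and 529 CPM (0.53 ± 0.16, adjusted p = 0.0426; 0.0527 with RLE scaling). Of laminin-332, Lamb3 rose from 249 and 216 to 345 and 362 CPM (0.60 ± 0.17, adjusted p = 0.0289). Lama3, at 34.0 and 17.0 against 45.4 and 53.8 CPM, had an adjusted p of 0.0573. Itgb5 fell from 24.6 and 33.5 to 17.7 and 17.9 CPM (-0.70 ± 0.17, adjusted p = 0.017). The remaining calls, Itgb7 (0.210 and 0.545 to 1.55 and 1.47 CPM; 1.99, and 2.81 without the second ethanol library) and Itga2b (0.337 and 0.252 to 0.683 and 0.759 CPM; adjusted p = 0.154 with DESeq2), were at low counts. With the first or the second 4OHT vehicle library left out only Itga3 and Itgb6 remained called, without the first ethanol library Itgb7 and Itga2b were lost, and without the second Lamb3, Itga6 and Itga2b. With only these 2 groups fitted, Itgb5 (adjusted p = 0.0595), Itga2b (0.0721) and Itga6 (0.0933) were not called. Of 26 listed, Itga5, Itgb3, Itgam, Itga11 and Itgad did not pass the filter on low counts.

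With MRTX1133 present in both arms, 6 of 21 members were called between 4OHT and ethanol (5 higher, 1 lower), against 27.7% of all genes (13.2% higher, 14.5% lower, and 67.7% with groups that did not overlap). Itgb6 rose from 139 and 139.9 to 426 and 473 CPM (1.69 ± 0.15, adjusted p = 0.00032), giving the highest Itgb6 values of the 48-h table. Lamb3 rose from 314 and 227 to 453 and 489.7 CPM (0.80 ± 0.17, adjusted p = 0.0107), Lama3 from 19.1 and 12.2 to 35.9 and 40.5 CPM (1.29 ± 0.33, adjusted p = 0.0238), Itga3 from 148 and 107 to 208 and 229 CPM (0.77 ± 0.20, adjusted p = 0.022) and Itga2b from 0.191 and 0.362 to 1.22 and 1.10 CPM (2.06 ± 0.39, adjusted p = 0.00688). Itgb5 fell from 26.1 and 28.8 to 15.3 and 16.6 CPM (-0.78 ± 0.17, adjusted p = 0.0127). Itga2, at 86.2 and 112 against 93.5 and 100.1 CPM, was not called. Without the first 4OHT library with MRTX1133 only Itgb6 remained called, without the second Itgb6 and Itga2b, and without the second ethanol library with MRTX1133 Itga3, Itgb5 and Lama3 were lost.

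Partner genes were counted the same way, beside the 15.3% of all genes called higher and 15.7% called lower by deletion with vehicle. In that comparison, 2 of 5 hemidesmosome partners, 6 of 16 focal adhesion genes, 7 of 11 ligands and 5 of 6 proteases were higher and none of these was lower, while 2 of 9 basement membrane partners rose and 1 fell. Plec, which ties alpha6 beta4 to keratin, rose from 174 ± 32.6 to 301 ± 7.58 CPM (0.79, adjusted p = 0.0369), and the tetraspanin Cd151, which binds laminin-binding integrins, from 112 ± 16.1 to 170.5 ± 5.33 CPM (0.61, adjusted p = 0.0127). Tns4 rose from 44.9 ± 8.99 to 134 ± 5.26 CPM (1.57, adjusted p = 0.0012). Mmp14 rose from 203 ± 31.3 to 557 ± 14.1 CPM (1.46, adjusted p = 0.000452) and Plau from 100.2 ± 11.0 to 288 ± 30.8 CPM (1.53, adjusted p = 0.000389). With MRTX1133 in both arms the counts were 2 of 5 hemidesmosome partners higher, 3 of 16 focal adhesion genes higher and 1 lower, 7 of 11 ligands higher and 1 lower, 1 of 9 basement membrane partners higher and 1 lower, and 5 of 6 proteases higher, beside 13.2% of all genes higher and 14.5% lower. No marker of the 4 cell type lists was called by deletion with vehicle. With MRTX1133, 1 of 6 epithelial, 1 of 2 fibroblast and smooth muscle and 1 of 3 endothelial and platelet markers were called higher. The sums in ethanol and 4OHT were 7774 and 8026 against 8106 and 7407 CPM for the epithelial list, 91.8 and 143 against 99.2 and 99.1 CPM for the fibroblast list, and 3.56 and 2.13 against 4.69 and 4.61 CPM for the endothelial list. The part of these markers in the member values was not tested.

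**Figure D4:**
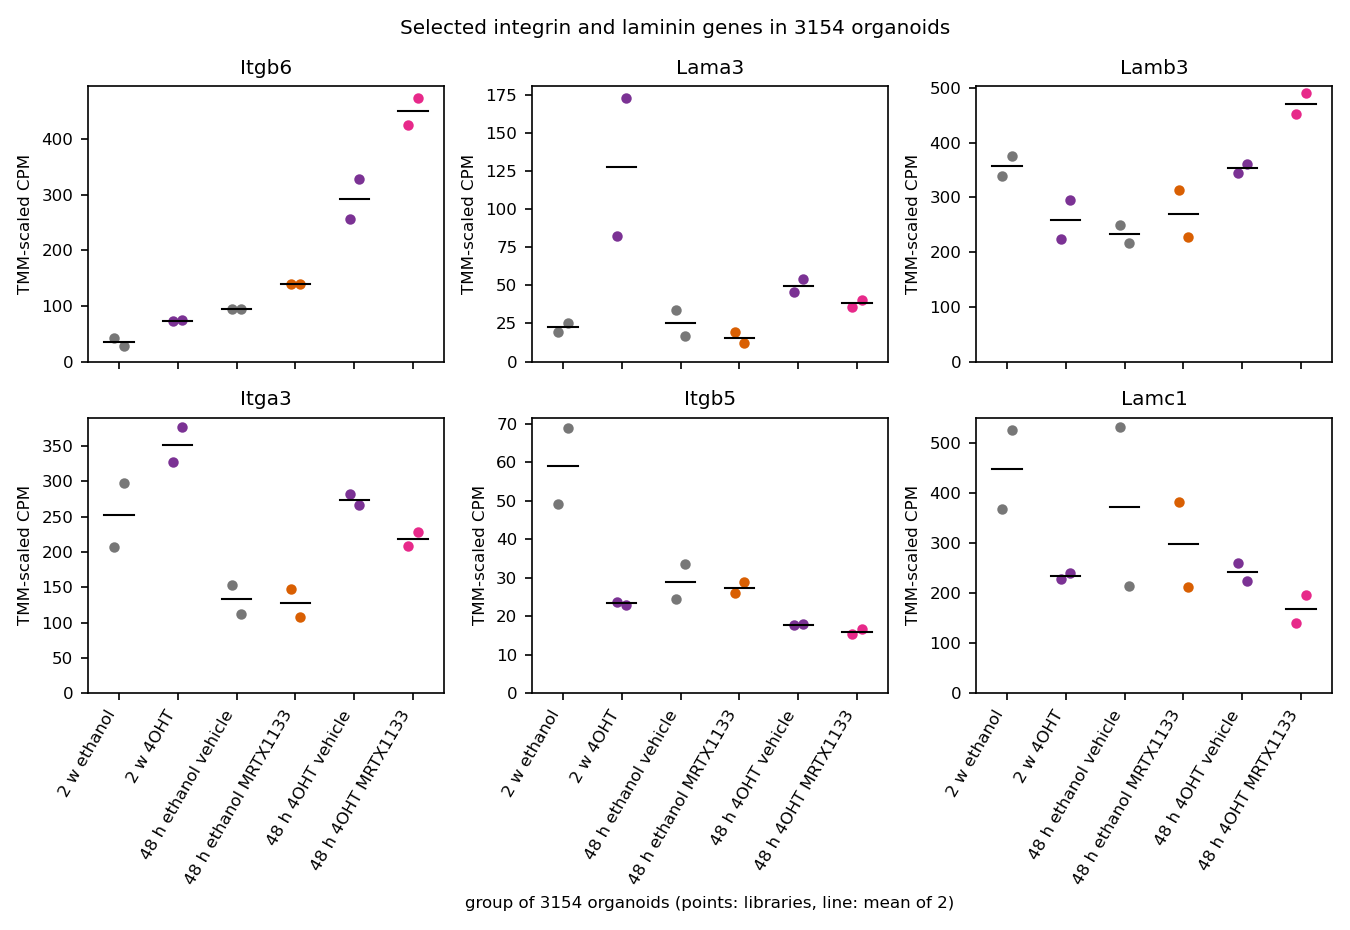
TMM-scaled CPM of Itgb6, Lama3, Lamb3, Itga3, Itgb5 and Lamc1 in the 6 groups of 3154 organoids, with a point per library and a line at the mean of 2. Itgb6 is higher and Itgb5 lower in every 4OHT group than in its ethanol control, and Lama3 at 2 weeks is 82.4 and 173 CPM in 4OHT against 19.5 and 25.5 CPM in ethanol. The 2-week and 48-h tables were scaled separately.

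In 3154 organoids given MRTX1133 at 3 nM, Itga2 fell after Hnf4a deletion and was the only member called in edgeR. These 2 comparisons share their libraries with the deletion comparisons at 48 h. With Hnf4a intact (ethanol), 0 of 21 members were called in edgeR, against 0.349% of all genes (0.317% higher, 0.0323% lower), and 4 had an unadjusted p under 0.05. DESeq2 also called 0 members there, with 319 of 14144 genes. After deletion (4OHT), 1 of 21 was called, against 4.64% of all genes (2.1% higher, 2.54% lower): Itga2, lower, from 243 and 235 to 93.5 and 100.1 CPM (-1.30 ± 0.17, adjusted p = 0.0174). In ethanol, Itga2 went from 126 and 161 to 86.2 and 112 CPM (-0.53 ± 0.17, adjusted p = 0.278). The test of the difference between these responses gave -0.77 for Itga2 (adjusted p = 0.572), the only member with an unadjusted p under 0.05 there. This interaction was called in 0 members and 0% of all genes by edgeR, and in 0 members and 30 of 12053 genes by DESeq2. The Itga2 call in 4OHT was lost without any 1 of its 4 libraries (adjusted p from 0.0932 to 0.221).

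Close to the threshold in 4OHT were Itgb6 (257 and 328 to 426 and 473 CPM, 0.62 ± 0.14, adjusted p = 0.0504) and Itga6 (532 and 529 to 288 and 359.8 CPM, -0.71 ± 0.16, adjusted p = 0.0522). In neither of these did the groups overlap, as in 66.6% of all genes tested there. Lamb2 had 160.5 and 165 against 244 and 296 CPM (0.73 ± 0.21, adjusted p = 0.102) and Lamb1 191 and 189 against 86.6 and 103 CPM (-1.0 ± 0.27, adjusted p = 0.0823). When only these 2 groups were fitted, 13 members and 3932 of 14847 genes were called, against 717 genes with all 4 groups. Tns4 fell in the same comparison from 134 ± 5.26 to 43.1 ± 7.58 CPM (-1.63, adjusted p = 0.0137), the only focal adhesion gene of 16 called. Of the other partners, beside 2.1% of all genes called higher and 2.54% lower, 1 of 9 basement membrane genes fell. Among the rest, 2 of 11 ligands and 1 of 6 proteases rose, and 0 of 5 hemidesmosome genes were called.

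With HNF4A raised by doxycycline in H1651 cells for 7 days, LAMA4 and LAMB3 were higher and LAMA1 was lower in edgeR. No cells without the construct were given doxycycline, so effects of doxycycline itself and of HNF4A cannot be told apart. Of 33 members tested, 3 were called (2 higher, 1 lower), against 1.42% of all genes (1.04% higher, 0.386% lower, and 43.4% with groups that did not overlap). LAMA4, an alpha chain typical of vessel and mesenchymal basement membranes, rose from 13.1 and 11.8 CPM without doxycycline to 29.0 and 35.8 CPM with it (1.37 ± 0.13, adjusted p = 0.00711). LAMB3 rose from 51.7 and 51.0 to 91.4 and 72.7 CPM (0.68 ± 0.11, adjusted p = 0.0433; 0.0527 with a minimum of 10 counts). LAMA1, the alpha chain of the embryonic laminin-111, fell from 531 and 527 to 358.2 and 314 CPM (-0.65 ± 0.08, adjusted p = 0.0163). LAMA3 had 29.5 and 20.8 against 12.9 and 9.67 CPM (-1.15 ± 0.20) with an adjusted p of 0.052, and ITGA1 14.8 and 10.9 against 23.9 and 22.8 CPM (0.87 ± 0.15) with an adjusted p of 0.0525. DESeq2 called 6 members and 441 of 18380 genes, among them LAMA3 (-1.15, adjusted p = 1.72e-05), ITGA1 (0.87, adjusted p = 0.000771) and the integrin ITGB5 (-0.34, adjusted p = 0.0309). In edgeR 7 were called without the first uninduced library (412 of 18187 genes) or the second induced library (410 of 18272 genes), and LAMA3 was called without any 1 of the 4 libraries.

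ITGB1 (894 and 844 against 873 and 866 CPM), ITGAV (434 and 368 against 439.9 and 353 CPM) and LAMA5 (432 and 452 against 458 and 409.8 CPM) overlapped between the groups. ITGB3 was listed and did not pass the filter on low counts. Of the partners, beside 1.04% of all genes called higher and 0.386% lower, 1 of 16 ligands and 1 of 6 proteases fell. These were THBS1 (99.2 ± 7.25 to 65.7 ± 3.63 CPM, -0.59, adjusted p = 0.0253) and MMP2 (56.3 ± 15.6 to 22.1 ± 1.6 CPM, -1.35, adjusted p = 0.0198). No hemidesmosome, focal adhesion or basement membrane partner was called. In the same libraries the summed level of 9 fibroblast and smooth muscle markers, all above 3 counts, was 676 and 770 CPM without and 418 and 461 CPM with doxycycline, most of it COL3A1 (432 ± 23.6 to 241 ± 0.913 CPM), while 2 of 6 epithelial markers were called higher and none lower, their sum going from 4513 and 4506 to 5837 and 6313 CPM. The part of either list in the laminin values was not tested. ITGB6, called in each Hnf4a deletion comparison in mouse, had a mean of 1.55 CPM without and 1.49 CPM with doxycycline.

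The remaining members were low or uncalled throughout. In the mouse tables Itga10, Itga11, Itgam, Itgb2 and Lamc3, and outside 3311 also Itgb3 and Itgad, stayed under 5 CPM in every library where they were listed. Lama1, listed only for 3311 among the mouse tables, had 30.5 and 41.0 CPM in vehicle and 29.2 and 34.4 CPM with trametinib and was not called. Itga9, a beta1 partner that binds tenascin and osteopontin, was not called in any mouse comparison by edgeR with all libraries, TMM scaling and no replicate block, at 5.21 to 50.1 CPM over the mouse libraries. Of the 8 noncoding symbols, ITGB2-AS1 and ITGA6-AS1 were called in H358, the only comparison in which they passed the filter on low counts, and the other 6 (ITGA9-AS1, ITGB1-DT, ITGB1P1, ITGB8-AS1, LAMA5-AS1 and LAMB2P1) reached a group mean of at most 3.43 CPM. ITGB1P1 and LAMB2P1 are pseudogenes that resemble ITGB1 and LAMB2, and reads could be split between them.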

How the data were processed

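The authors deposited 7 tables of raw counts per gene, which the values show as whole numbers. The submitters' processing notes name cutadapt 3.5, STAR 2.7.6a and featureCounts 1.6.3. They also name mouse and human genome builds, and which build each table used is not given in the sources used here. Per the labels' protocols, RNA was poly(A)-selected and sequenced as strand-specific paired-end libraries. All 34 libraries were used, grouped by the labels. Genes were taken by name, and 1 gene counted among the members, like 1 allele of the mouse lines, is not reported here. The members and all lists were chosen with earlier results of these data known.

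Each table was fitted on all its groups with edgeR 4.0.16 (R 4.3.3, limma 3.58.1): filterByExpr, TMM scaling, quasi-likelihood test, Benjamini-Hochberg adjustment over all genes tested, threshold 0.05. SE is the log2 fold change divided by the square root of F. The fitting code was tested on simulated data. Mouse levels per kb used GENCODE M21 exon lengths, and no lengths were used for human genes, so human levels were not compared between genes. Intervals and floors (3 counts) cover counting error only. Depth is in the report, and replicates of every group differed by more than counting noise.

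Genes named are the main epithelial laminin chains and the main epithelial integrin genes. To these were added up to 3 called members per direction with the largest change and up to 2 partners per direction and list, all with 5 CPM or more in 1 of the groups. Others (low-count calls, genes near the threshold and some partners) were named after their values were seen. Alternatives were RLE and upper-quartile scaling, no count filter or at least 10 counts in every library, DESeq2 1.42.0, a replicate block, only the compared groups, and leaving out each library. Same-numbered 1027B libraries deviated together (Pearson r over genes 0.33 to 0.56 between groups). Their numbers were therefore taken as pairs, from the data and not from a stated design.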

Additional observations from a re-analysis of the deposited data

Results flagged for a closer look

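Members called in opposite directions under trametinib in different cultures, at 10 nM in 1027B, 50 nM in 3311 and 20 nM in H358, were picked out where the groups did not overlap and the higher group's mean was at least 5 CPM, and the difference between cultures was not tested because each culture has its own table. Itgb6 changed by 1.47 on the log2 scale in 1027B and 1.73 in 3311, and ITGB6 by -1.18 in H358. Lamb3 changed by 1.53 in 1027B and -0.58 in 3311, and LAMB3 by -0.76 in H358. Itgav changed by -0.56 in 3311 and ITGAV by 0.59 in H358. Itga7 changed by 0.44 in 1027B and -0.81 in 3311. Itgb3, higher by 1.98 in 1027B at a mean of at most 1.02 CPM, was left out by that level, and ITGB3 in H358 changed by -2.12. The cultures also differ in species, culture form and dose.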

How the results depend on the processing

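With all libraries kept, 77 called results were recomputed in 491 values, of which 474 stayed called in the same direction and 17, from 11 results, did not. Leaving out 1 library gave 308 values, of which 217 stayed called, 91 (35 results) did not, and 6 moved by over 1.5 times. None of these values changed sign. Counts of called members moved as follows, and the cause was not tested. For Hnf4a deletion at 2 weeks the count of 4 became 7 with DESeq2 (2337 of 14951 genes) and 12 with the replicate block (4563 of 14492 genes). It also moved when 1 library was left out. For doxycycline, 3 became 5 without a filter (326 of 20800 genes), 6 with DESeq2 (441 of 18380) and 12 with the replicate block (3048 of 17351). The count also moved with 1 library out. For MRTX1133 against trametinib in 1027B, 0 became 4 with DESeq2 and 5 with the replicate block. For trametinib in H1651, 0 became 1 with DESeq2 (47 of 15986 genes) and 10 with the replicate block (1881 of 18277 genes). The count also moved in some fits with 1 library out. For MRTX1133 in 4OHT-treated 3154, where 717 of all genes were called, 1 became 3 with upper-quartile scaling (697 genes) and 3 with at least 10 counts (738 genes). It became 6 with DESeq2 (1291 genes), 2 with the replicate block (759 genes) and 13 with only the 2 groups (3932 genes). The 1 call was lost with any 1 library out. For deletion at 48 h with vehicle, 9 became 5 with only the 2 groups (3154 of 14683 genes, against 4795 of 15458). With 1 library out, the counts moved for both deletion comparisons at 48 h. With 1 library out, 7 became 3 for MRTX1133 in 1027B, 11 became 8 to 9 for trametinib in 1027B, 16 became 12 to 15 in 3311 and 20 became 16 to 20 in H358. A group left with 1 library was assumed to vary like the others. Calls over all genes also moved in most of these fits, so the moves are not particular to the members. In tables with 2 groups the replicate numbers are only numbers, and same-numbered libraries correlated with r of 0.516 (2 weeks), 0.475 (doxycycline), 0.184 (3311), 0.440 (H358) and 0.773 (H1651 trametinib). In 3154 at 48 h, r ran from -0.430 to 0.721. Over all genes, the block raised doxycycline calls from 247 (180 higher) to 3048 (1611 higher), 2-week deletion calls from 1421 to 4563 and H1651 trametinib calls from 0 to 1881, and DESeq2 raised MRTX1133 calls in ethanol-treated 3154 from 54 (49 higher) to 319 (217 higher).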
